A study of Mus musculus with 4 samples.

Results

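The genes described are 10 components of the chaperone machinery of the endoplasmic reticulum (ER) and of the unfolded protein response (UPR), namely Hspa5, Hsp90b1, Calr, Pdia4, Pdia6, P4hb, Dnajb9, Sdf2l1, Xbp1 and Creb3l1. They were chosen by name, as well known genes of this machinery, with earlier results of these data known. They made up 10 of the 24944 genes to which a transcript of the deposited table could be assigned. All 10 reached 1 RPKM (reads per kilobase of transcript, scaled to the mapped reads of the library) in every library, and 11029 genes did so in at least 1 library. Unless another set is named, shares of all genes are shares of these 11029.

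The study asked how the loss of HMGA2, a chromatin protein of the high mobility group, changes the transcriptional response of fibroblasts to transforming growth factor beta 1 (TGFB1). Mouse embryonic fibroblasts (MEF) of C57BL/6 Hmga2+/+ and Hmga2-/- embryos at day 15.5 were prepared from the body after the head, limbs, tail and inner organs had been taken off, and they were immortalized with SV40. After a night in medium with 1% fetal calf serum, cells of each genotype received water (Ctrl) or 10 ng/ml of human recombinant TGFB1 for 24 h, and total RNA was sequenced with strand information. The deposited data held 1 library for each of the 4 conditions, so no difference below has a replicate check and none carries a p-value. Both genotypes and both treatments shared the starvation and the SV40 immortalization, the titles name the mutant Hmga2-/- where its genotype label reads Hmga-/-, and the sources used here do not give how many embryos or lines stand behind a library. The methods of the study mention duplicate sequencing within a single experiment, and whether a deposited column pools such duplicates is not given.

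The libraries held 56140000 reads for Hmga2+/+ Ctrl, 57300000 for Hmga2+/+ TGFB1, 56610000 for Hmga2-/- Ctrl and 56940000 for Hmga2-/- TGFB1, as recovered from the steps of the RPKM values. Hmga2 itself had 14.8 and 40.7 RPKM in the Hmga2+/+ Ctrl and TGFB1 libraries and was listed at 0 in both Hmga2-/- libraries. The TGFB1 target Ctgf, a matricellular protein, had 13.2 RPKM in Ctrl and 173 in TGFB1 of Hmga2+/+, and 24.9 and 359 RPKM in those of Hmga2-/-. All 6 of the fibroblast markers Col1a1, Col1a2, Col3a1, Vim, Pdgfrb and Thy1 were expressed, with a summed level of 1842 to 2227 RPKM. Within this list Col3a1 was lower with TGFB1, at -0.70 log2 in Hmga2+/+ and -0.75 log2 in Hmga2-/-, Thy1 was higher, at 0.69 and 1.11 log2, and Vim was 0.64 log2 higher in Hmga2-/- Ctrl than in Hmga2+/+ Ctrl. None of the epithelial markers Epcam, Cdh1 and Krt18 reached 1 RPKM, and the muscle markers Myod1 and Myog were at 0 in all libraries. The endothelial list summed to 1.14 and 4.53 RPKM in Hmga2+/+ and to 1.47 and 7.46 RPKM in Hmga2-/-, Ctrl and TGFB1 respectively, nearly all of it Kdr, while Pecam1 and Cdh5 stayed under 0.05 RPKM. Kdr, Col3a1 and Thy1 thus moved with the treatment, and their part in the changes below was not tested. The leukocyte list summed to 1.26 to 1.63 RPKM, nearly all of it Cd68.

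Secreted and membrane proteins fold in the ER with the help of chaperones, of lectins that hold glycoproteins and of enzymes that form disulfide bonds. When unfolded proteins accumulate, the sensors IRE1, PERK and ATF6 are activated. IRE1 splices the Xbp1 mRNA, PERK favours the translation of ATF4, ATF6 is cut in the Golgi, and the resulting transcription factors raise the genes of chaperones, of ER-associated degradation and of amino acid supply. Fibroblasts secrete much collagen, which passes through this machinery.

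A well known regulatory site of ER chaperone genes is the ER stress response element (ERSE), a CCAAT box and a CCACG box held at a fixed distance. The promoters of the 10 genes were therefore searched for CCAAT and CCACG with 9 bases between them, on both strands, from 250 bases before to 50 bases after the RefSeq start (GRCm38.p6). A promoter was at hand for 9 genes, all except Creb3l1. ERSE was found in 4 of these 9, in Hspa5, Hsp90b1, Calr and Pdia6. It was in 39 of all 32851 promoters of this length, or 0.119%, and in 37 of their 27025 genes, or 0.137%. The stretches that hold it are printed 5′ to 3′ on the strand of the gene, with the fixed bases of the element in capitals. The Hspa5 element lay on the strand of the gene, at positions -65 to -47 from the start, at chr2:34772015-34772053 on the plus strand with its flanks.
Hspa5: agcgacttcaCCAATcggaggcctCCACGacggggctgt
The Pdia6 element had the same orientation, at positions -98 to -80, at chr12:17266481-17266519 on the plus strand.
Pdia6: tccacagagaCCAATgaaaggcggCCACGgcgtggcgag
In Calr the element was on the opposite strand, so that it reads CGTGG and ATTGG, at positions -162 to -144, at chr8:84847065-84847103 on the minus strand.
Calr: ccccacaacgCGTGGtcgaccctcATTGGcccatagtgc
Hsp90b1 held the element in both orientations, at positions -212 to -194 on the strand of the gene and -107 to -89 on the other, at chr10:86705523-86705666 on the minus strand.
Hsp90b1: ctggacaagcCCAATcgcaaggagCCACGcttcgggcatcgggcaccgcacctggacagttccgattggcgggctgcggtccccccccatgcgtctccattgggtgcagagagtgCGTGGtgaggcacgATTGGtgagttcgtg
Hsp90b1 was thus the sole gene of the 9 with more than 1 match. The related elements ERSE-II (ATTGG and CCACG with 1 base between them), UPRE (TGACGTGG) and the amino acid response element AARE (TGATGNAAT) were in none of the 9 promoters and in 0.0365%, 0.676% and 0.965% of all promoters. The CCACG box alone, which is part of ERSE and ERSE-II, was in 8 of 9, all except Xbp1. Of the 27025 genes 35.5% had it, and of all promoters 32.8%. A match describes the letters in this window and does not show that a factor binds there.

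The 10 genes covered a wide range of levels, and their order was nearly the same in the 4 libraries. Calr and Hsp90b1 were highest in all 4 libraries, followed by Hspa5, P4hb, Pdia4, Pdia6, Dnajb9 and Creb3l1. Xbp1 and Sdf2l1 were lowest and changed places, with Sdf2l1 above Xbp1 in Hmga2+/+ Ctrl alone. These 2 neighbours were within counting error of each other in the Ctrl libraries, where Sdf2l1 had 241 reads in each and Xbp1 had 471 and 513 over a transcript of 2238 bases against 1103. Every other pair of neighbours in the order differed by more than its 95% counting interval in all 4 libraries. From the highest to the lowest gene, the level in RPKM differed 170-fold in Hmga2+/+ Ctrl and 189-fold in Hmga2+/+ TGFB1. It differed 190-fold in Hmga2-/- Ctrl and 146-fold in Hmga2-/- TGFB1. Together the 10 genes took 0.403% of all mapped reads in Hmga2+/+ Ctrl and 0.589% in Hmga2+/+ TGFB1. The share was 0.424% in Hmga2-/- Ctrl and 0.680% in Hmga2-/- TGFB1, with Wilson 95% intervals of 0.401% to 0.405% for the lowest and 0.678% to 0.682% for the highest of these shares. Summed levels were 1719 and 2509 RPKM in Hmga2+/+ and 1824 and 2886 RPKM in Hmga2-/-, Ctrl and TGFB1 respectively, of which Calr made at most 40.3%. In bulk RNA such as this, a changed number of cells of a kind and a changed amount of RNA per cell cannot be told apart.

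**Figure D1:**
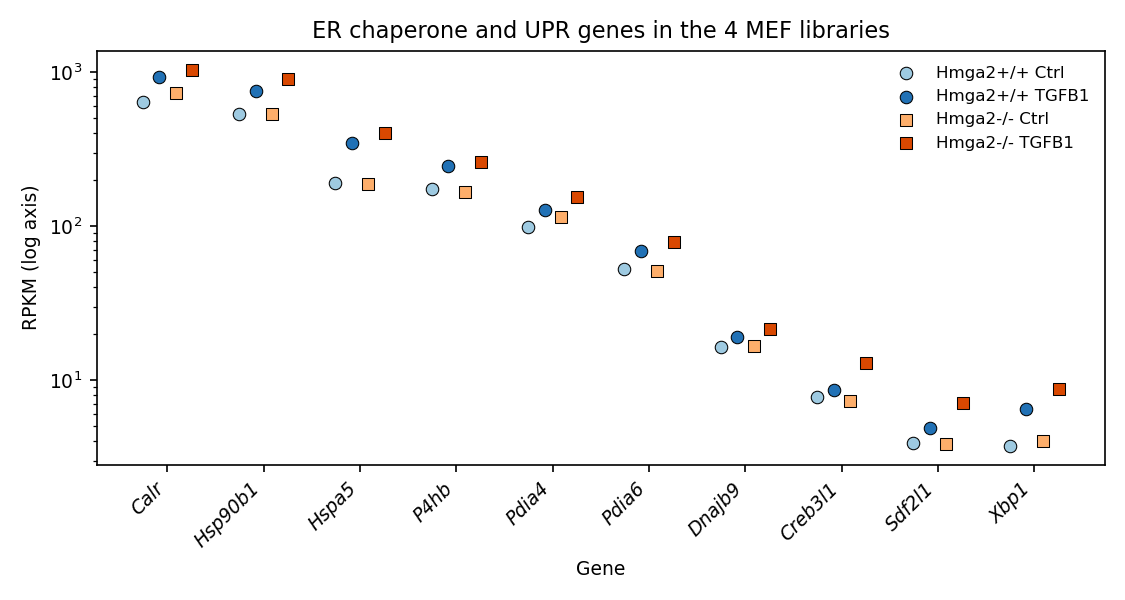
Level of each of the 10 genes in the 4 libraries, in RPKM on a log10 axis, with 1 point per library (1 library per condition, no replicates). Calr at 637 to 1039 RPKM stands at the top and Xbp1 and Sdf2l1 at 3.75 to 8.69 RPKM at the bottom, and for every gene the TGFB1 point lies above the Ctrl point of the same genotype.

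With TGFB1 all 10 genes were higher than in the Ctrl library of the same genotype, in Hmga2+/+ as in Hmga2-/-. Of all 11029 genes, 45.9% were higher with TGFB1 in Hmga2+/+, 50.8% in Hmga2-/- and 41.3% in both. Among the 4852 genes with at least 10 RPKM in a library, the shares were larger, at 56.9% in Hmga2+/+ and 60.1% in Hmga2-/-. At the threshold of 1.5-fold, 2 of 10 were called higher in Hmga2+/+, where 11.7% of all genes were, and 7 of 10 in Hmga2-/-, where 13.4% of all genes were. None of the 10 was 1.5-fold lower in either genotype, a call made for 17.1% and 15.5% of all genes. The median change of the 10 was 0.45 log2 (1.36-fold) in Hmga2+/+ beside -0.05 log2 over all genes, and 0.70 log2 (1.62-fold) in Hmga2-/- beside 0.01 log2. Each change is the log2 ratio of RPKM of 2 libraries, and its 95% interval, an exact interval for the ratio of read counts, covers counting error only. The spread between cultures is not in these intervals, and PCR copies are counted as reads.

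Among the general chaperones, Hspa5 changed most. Hspa5 encodes BiP, the ER member of the Hsp70 family, which binds unfolded chains and keeps the UPR sensors inactive. Its transcript (chromosome 2, 34772090 to 34776529, plus strand) had 191 RPKM in Hmga2+/+ Ctrl, 346 in Hmga2+/+ TGFB1, 187 in Hmga2-/- Ctrl and 403 in Hmga2-/- TGFB1. The Ctrl libraries were close to each other and both TGFB1 libraries far above, by 0.86 log2 (0.84 to 0.88) or 1.81-fold in Hmga2+/+ and by 1.11 log2 (1.09 to 1.13) or 2.16-fold in Hmga2-/-. Of all genes, 6.63% had a larger change in Hmga2+/+ and 4.55% in Hmga2-/-. Hsp90b1 encodes GRP94, the Hsp90 of the ER, which folds integrins and Toll-like receptors among other clients. It is on chromosome 10 (86690841 to 86705444, minus strand) and measured 532, 755, 538 and 898 RPKM in the same order of libraries. The Ctrl values were again nearly equal, and the change was 0.50 log2 (0.49 to 0.52) in Hmga2+/+ and 0.74 log2 (0.73 to 0.75) in Hmga2-/-, so that the gene passed 1.5-fold in Hmga2-/- with 1.67-fold. Both promoters hold the ERSE printed above. Calr, calreticulin, is a lectin chaperone of glycoproteins and a calcium store of the ER. Its transcript on chromosome 8 (84842088 to 84846931, minus strand) had 637, 926, 735 and 1039 RPKM. Calr thus began higher in Hmga2-/- than in Hmga2+/+, and it changed by 0.54 log2 (0.52 to 0.55) in Hmga2+/+ and by 0.50 log2 (0.49 to 0.51) in Hmga2-/-, 1.45-fold and 1.41-fold, below the threshold in both. As Hspa5 changed more than its neighbours in level, the ratio of Calr to Hspa5 went from 3.34 to 2.68 in Hmga2+/+ and from 3.93 to 2.58 in Hmga2-/-.

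The 3 protein disulfide isomerases were higher in both TGFB1 libraries and under 1.5-fold in Hmga2+/+. P4hb, the classical protein disulfide isomerase, which is also a subunit of the prolyl 4-hydroxylase of collagen, had 174, 247, 167 and 262 RPKM (chromosome 11, 120560304 to 120572936, minus strand). It changed by 0.51 log2 (0.48 to 0.53) in Hmga2+/+ and by 0.65 log2 (0.63 to 0.68) in Hmga2-/-, where it passed the threshold with 1.57-fold. Pdia6 (chromosome 12, 17266595 to 17284770, plus strand), an isomerase that works with BiP, had 52.8, 69.1, 51.2 and 78.6 RPKM. The change of Pdia6 was 0.39 log2 (0.34 to 0.43) and 0.62 log2 (0.57 to 0.67), and with 1.54-fold it was the gene nearest above the threshold in Hmga2-/-. Pdia4, or ERp72, was the isomerase that moved least in Hmga2-/-, with 99.2, 127, 114 and 154 RPKM (chromosome 6, 47796141 to 47813512, minus strand). It stayed below 1.5-fold in both genotypes, at 0.35 log2 (0.32 to 0.39) and 0.43 log2 (0.40 to 0.46), and like Calr its Ctrl level was higher in Hmga2-/-.

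The 2 cochaperones of BiP were less abundant. Dnajb9 encodes ERdj4, a J-domain protein that recruits BiP and takes part in the degradation of misfolded proteins. Dnajb9 had 16.4, 19.1, 16.8 and 21.5 RPKM (chromosome 12, 44205897 to 44210068, minus strand), a change of 0.22 log2 (0.13 to 0.31) and 0.35 log2 (0.26 to 0.44). It was below 1.5-fold in both genotypes and had the smallest change of the 10 in Hmga2-/-, and the ratio of Hspa5 to Dnajb9 went from 11.7 to 18.1 in Hmga2+/+ and from 11.1 to 18.8 in Hmga2-/-. Sdf2l1, a soluble component of the BiP complex with a J-domain protein, had 3.89, 4.89, 3.86 and 7.12 RPKM (chromosome 16, 17130138 to 17132383, minus strand). Its Ctrl libraries were at the same level, and its change was 0.33 log2 (0.08 to 0.58) in Hmga2+/+ and 0.88 log2 (0.65 to 1.11) in Hmga2-/-, from 241 reads to 309 and to 447. The intervals of Sdf2l1 were the widest of the 10.

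The 2 transcription factors differed from each other in Hmga2+/+. Xbp1, the mRNA that IRE1 splices into a code for an active factor, had 3.75, 6.504, 4.05 and 8.69 RPKM (chromosome 11, 5520641 to 5525993, plus strand). Xbp1 was low in level and changed about as much as Hspa5, with 0.79 log2 (0.63 to 0.96) or 1.73-fold in Hmga2+/+ and 1.10 log2 (0.95 to 1.26) or 2.15-fold in Hmga2-/-. Both other transcripts of Xbp1 were also higher, by 0.78 and 0.91 log2 in Hmga2+/+ and by 1.12 and 1.21 log2 in Hmga2-/-. The larger changes were those of a short transcript of 335 bases, which had the highest mean level. No counting interval was computed for it, so whether Xbp1 changed more than Hspa5 is not settled. The levels do not tell the spliced from the unspliced mRNA. Creb3l1, or OASIS, is a factor anchored in the ER membrane that is freed by cleavage and acts on collagen genes in bone. It had 7.78, 8.60, 7.27 and 12.9 RPKM (chromosome 2, 91982328 to 92024170, minus strand). Of the 10 genes Creb3l1 changed least in Hmga2+/+, by 0.14 log2 (0.02 to 0.27), but in Hmga2-/- it changed by 0.83 log2 (0.71 to 0.95), or 1.78-fold.

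**Figure D2:**
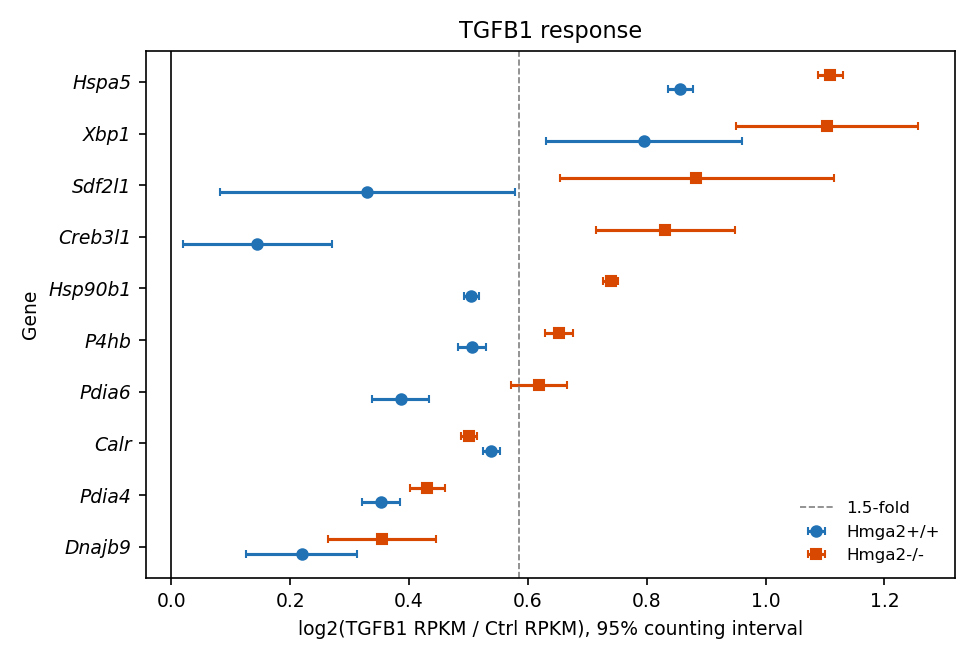
Change of the 10 genes with TGFB1, as log2 of RPKM in TGFB1 over RPKM in Ctrl, in each genotype (points, 1 library per condition), with 95% intervals for counting error and a line at 1.5-fold. In Hmga2+/+ only Hspa5 at 0.86 and Xbp1 at 0.79 lie past the line, whereas in Hmga2-/- Calr at 0.50, Pdia4 at 0.43 and Dnajb9 at 0.35 are the 3 that do not.

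**Figure D3:**
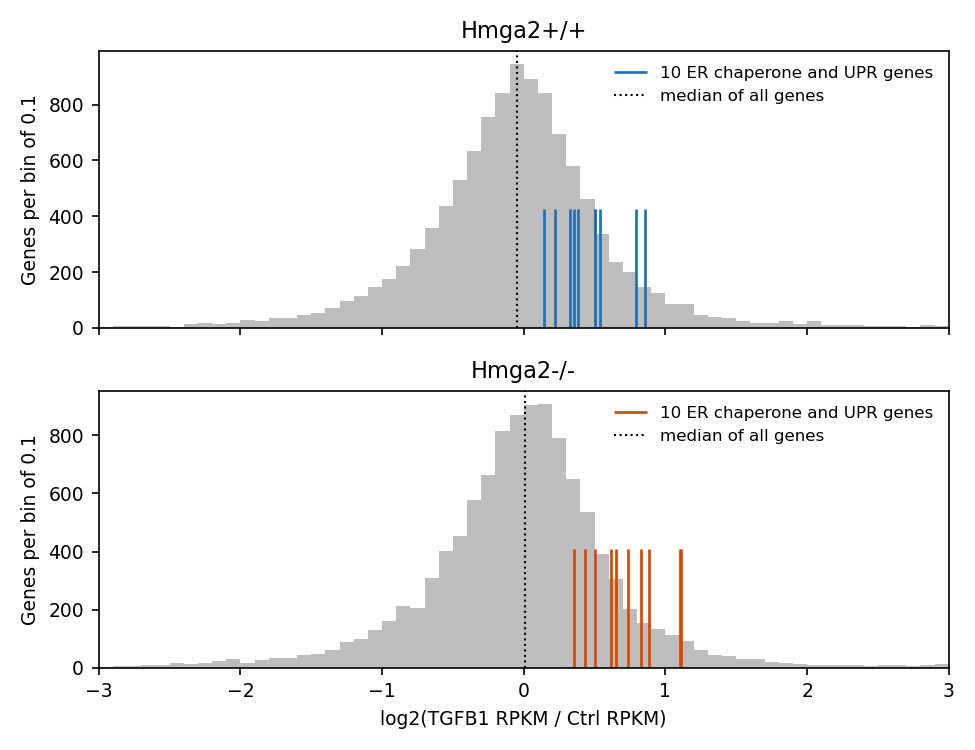
Distribution of the log2 change with TGFB1 over all 11029 genes in each genotype (bars, number of genes per bin), with the 10 genes marked. The marks lie to the right of 0 in both genotypes, around medians of 0.45 in Hmga2+/+ and 0.70 in Hmga2-/-, while the genes as a whole are centred at -0.05 and 0.01.

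Some of these genes overlap others. Hsp90b1, Pdia6 and Dnajb9 overlap an annotated gene on the opposite strand, and Hsp90b1 and Pdia4 overlap other annotated RNAs on their own strand. Of the 5 genes with more than 1 transcript in the table, the transcripts of similar length gave changes close to each other, at most 0.62 against 0.71 log2 for Pdia6 in Hmga2-/-, while a fragment of 76 bases within Pdia4 had 9.37, 9.42, 9.53 and 6.70 RPKM and did not follow the full transcript. Among the 4852 genes with at least 10 RPKM, whose levels are nearer to those of the chaperones, 14.2% were 1.5-fold higher with TGFB1 in Hmga2+/+ and 15.7% in Hmga2-/-. The shares 1.5-fold lower were 10.4% and 9.73%, and the median changes 0.07 and 0.11 log2.

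Without TGFB1 the 10 genes were at nearly the same level in both genotypes. None was past 1.5-fold between the Hmga2-/- and Hmga2+/+ Ctrl libraries, where 2.48% of all genes were higher and 2.05% lower. In Hmga2-/- 5 of the 10 were above and 5 below the Hmga2+/+ level, and the median difference was 0.00 log2 beside -0.02 log2 over all genes. Calr and Pdia4 stood apart with 0.21 log2 each, with intervals of 0.19 to 0.22 for Calr and 0.17 to 0.24 for Pdia4. The other 8 lay between -0.10 log2 for Creb3l1 and 0.11 log2 for Xbp1. Of these 8 only Hspa5 at -0.03, P4hb at -0.06 and Hsp90b1 at 0.02 log2 had an interval for counting error without 0.

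Between the TGFB1 libraries all 10 genes were higher in Hmga2-/-, as were 58.0% of all genes. The median difference was 0.24 log2 (1.18-fold) beside 0.04 log2 over all genes. Only Creb3l1 was past 1.5-fold, a call that 3.34% of all genes had in this direction and 2.28% in the other. Creb3l1 was at 8.60 RPKM in Hmga2+/+ and 12.9 in Hmga2-/-, a difference of 0.59 log2 (0.48 to 0.70) or 1.503-fold, just past the threshold, and the call is lost when the libraries are rescaled or a pseudocount is added. Sdf2l1 came next with 0.54 log2 (0.33 to 0.76), followed by Xbp1 with 0.42 log2 (0.29 to 0.55). The 7 chaperones and isomerases other than Sdf2l1 differed by less, from 0.08 log2 in P4hb to 0.28 log2 in Pdia4. For Hspa5 the difference was 0.22 log2 (0.21 to 0.24) and for Hsp90b1 0.25 log2 (0.24 to 0.26).

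The change with TGFB1 was larger in Hmga2-/- than in Hmga2+/+ for 9 of the 10 genes, and for 59.1% of all genes. This comparison takes the difference of the log2 changes, Hmga2-/- minus Hmga2+/+, and so shares its libraries with all the comparisons above. Its median was 0.23 log2 over the 10 genes and 0.05 log2 over all genes. Creb3l1 was the only gene of the 10 with a difference past 1.5-fold, with 0.69 log2 (0.52 to 0.86). Its fold change in Hmga2-/- was 1.61 times its fold change in Hmga2+/+. Of all genes 2.57% had a difference past 1.5-fold in this direction and 1.8% in the other, and 1.71% had a difference larger than that of Creb3l1. For Sdf2l1 the difference was 0.55 log2 (0.22 to 0.89), and 3.01% of all genes had a larger one. Xbp1 followed with 0.31 log2 (0.09 to 0.53), Hspa5 with 0.25 log2 (0.22 to 0.28), and Hsp90b1 and Pdia6 with 0.23 log2 each. For P4hb, Dnajb9 and Pdia4 the difference was 0.15, 0.13 and 0.08 log2. Calr alone changed less in Hmga2-/-, by -0.04 log2 (-0.06 to -0.02).

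**Figure D4:**
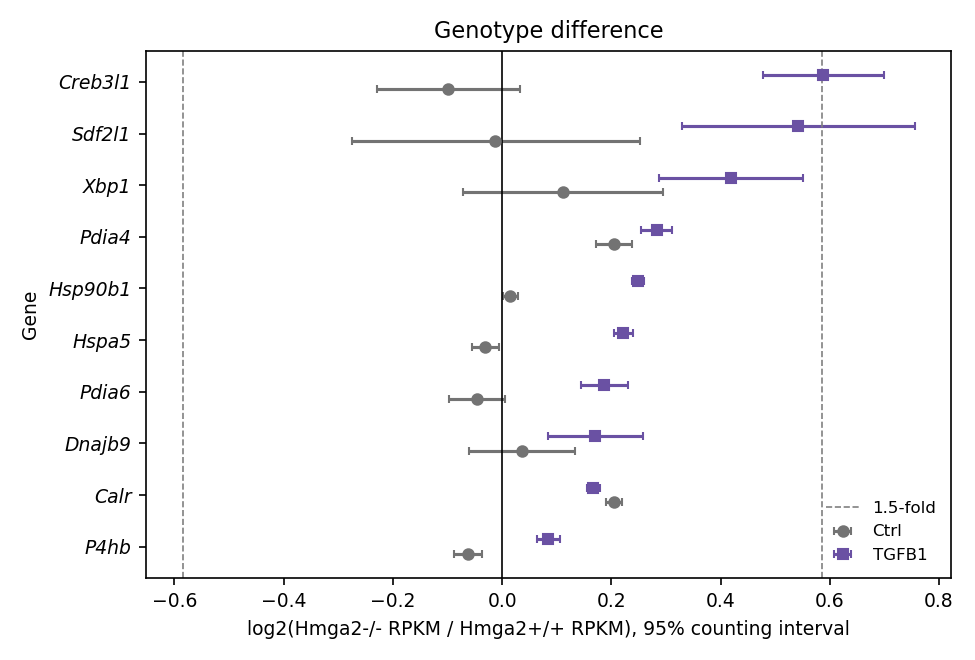
Difference between genotypes for each of the 10 genes, as log2 of RPKM in Hmga2-/- over RPKM in Hmga2+/+. Points are shown for Ctrl and for TGFB1 (1 library per condition), with 95% intervals for counting error and lines at 1.5-fold. With TGFB1 all 10 genes lie above 0, Creb3l1 at 0.59 just past the line and Sdf2l1 at 0.54 inside it. In Ctrl, Calr and Pdia4 at 0.21 are highest and Creb3l1 at -0.10 is lowest.

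The rest of the pathway was read from lists of named genes, with the share of all genes past 1.5-fold as given above. The largest changes were in a list of 10 genes that ATF4 is known to activate downstream of PERK. All 10 of this list were higher with TGFB1 in both genotypes, 8 past 1.5-fold in Hmga2+/+ and 10 in Hmga2-/-. Their median change was 1.42 log2 (2.68-fold) in Hmga2+/+ and 1.73 log2 (3.31-fold) in Hmga2-/-. Slc7a11, the cystine transporter, had 0.579, 3.44, 0.547 and 2.48 RPKM in the order of libraries used above, 2.57 and 2.18 log2 higher with TGFB1 in Hmga2+/+ and Hmga2-/-. Asns, asparagine synthetase, had 10.4, 44.3, 9.21 and 42.4 RPKM, a change of 2.09 and 2.20 log2. These are genes of amino acid supply, as is Cth, an enzyme of cysteine synthesis, with 1.93 and 1.78 log2. Trib3, a pseudokinase that restrains ATF4, changed by 1.55 and 1.76 log2, and Vegfa, the angiogenic factor, by 1.60 and 2.11 log2. Ddit4, an inhibitor of mTOR signalling, was at 0.17 log2 in Hmga2+/+ and 0.73 log2 in Hmga2-/-, and Sesn2 at 0.55 and 0.67 log2. These 2 were the genes of the list below 1.5-fold in Hmga2+/+. The list does not hold every such target, as Ddit3 and Atf3, which ATF4 also activates, were counted with the transcription factors. With TGFB1 Atf3 was higher in both genotypes, but Ddit3 was not, at -0.02 log2 in Hmga2+/+ and -0.15 log2 in Hmga2-/-.

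Of the 12 sensors and transcription factors, 4 were past 1.5-fold up in each genotype and none down, with a median of 0.13 log2 in Hmga2+/+ and 0.20 log2 in Hmga2-/-. The 4 were not the same genes in both genotypes. Ern1, which encodes IRE1, passed in Hmga2+/+ alone, at 0.61 and 0.50 log2. Creb3l2 passed in Hmga2-/- alone, at 0.32 and 0.64 log2. These 2 were named after their values were seen. With a pseudocount of 1 RPKM the count was 2 in each genotype, and with the transcript of highest mean RPKM it was 3 in Hmga2+/+. Atf4 had 60.5, 125, 58.7 and 131 RPKM, a change of 1.05 and 1.16 log2. Atf6, the sensor that is cut in the Golgi, had 4.47, 10.6, 4.62 and 8.94 RPKM, a change of 1.25 and 0.95 log2. Both were thus well above their Ctrl level in each genotype. Atf3, a factor induced by stress, was low and changed by 0.89 and 0.81 log2. Mbtps1, a protease that cuts ATF6, was lower with TGFB1 in both genotypes, by -0.45 and -0.33 log2. Mbtps2, which also cuts ATF6 and was named after its values were seen, changed by 0.05 and 0.35 log2. Ddit3, or CHOP, the factor tied to cell death in the UPR, measured 19.7, 19.4, 20.5 and 18.5 RPKM. It was named after its values were seen, and it changed by -0.02 log2 in Hmga2+/+ and by -0.15 log2 in Hmga2-/-.

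Among 17 further genes of ER folding that reached 1 RPKM, 4 were past 1.5-fold up in Hmga2+/+ and 7 in Hmga2-/-, none down, with a median of 0.36 and 0.53 log2. Ero1l, the oxidase that recharges protein disulfide isomerase, changed most, with 3.22 and 7.22 RPKM in Hmga2+/+ and 2.63 and 7.16 RPKM in Hmga2-/-, or 1.17 and 1.45 log2. Hyou1, a large Hsp70 relative that exchanges the nucleotide of BiP, changed by 0.78 and 1.07 log2, and Pdia5, another isomerase, by 0.67 and 0.72 log2. Prdx4, the peroxiredoxin of the ER, was lower with TGFB1 in both genotypes, at -0.44 and -0.40 log2. Of these 17 folding genes outside the 10, 14 were higher with TGFB1 in each genotype, and only upward changes passed 1.5-fold.

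In ER-associated degradation, 1 of 11 genes was past 1.5-fold up in Hmga2-/- and none in Hmga2+/+, where 1 was past 1.5-fold down. Herpud1, an organizer of the ubiquitin ligase of the ER membrane, changed by 0.39 and 0.64 log2, and Edem2, which trims mannose from misfolded glycoproteins, by -0.91 and -0.54 log2. The lectin Os9 was at -0.54 and -0.57 log2, and Derl3 did not reach 1 RPKM. Of 12 genes of the translocon and the signal peptidase, 1 was past 1.5-fold up in Hmga2+/+ and 3 in Hmga2-/-, and none was down. Spcs3, a subunit of the signal peptidase, changed most, by 0.78 and 1.03 log2. A further list held 13 genes of transport between ER and Golgi, genes of COPII and KDEL receptors among them. None of the 13 was past 1.5-fold in Hmga2+/+ and 1 was up in Hmga2-/-. This was Kdelr3, a receptor that returns chaperones with a KDEL end such as BiP and GRP94 to the ER, with 8.60 and 10.2 RPKM in Hmga2+/+ and 7.003 and 13.5 RPKM in Hmga2-/-. Its change was 0.25 log2 in Hmga2+/+ and 0.94 log2 in Hmga2-/-, and it was the sole gene of the 7 lists with at least 1 RPKM whose change differed by more than 1.5-fold between the genotypes.

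The chaperones of the cytosol and the mitochondria moved in both directions. Of 11 such genes 2 were past 1.5-fold up and 2 down in each genotype, with a median of 0.14 and 0.22 log2. Hspd1, the mitochondrial Hsp60, changed by 0.96 and 1.08 log2, and the cytosolic Hspa4 by 0.69 and 0.75 log2. Hspa1a was at -1.28 and -1.17 log2 and Hspa1b at -1.004 and -0.93 log2. The last 2 are the inducible Hsp70 genes, which are nearly identical in sequence, so that the split of reads between them is uncertain. Between genotypes no gene of the 7 lists with at least 1 RPKM was past 1.5-fold in the Ctrl libraries or in the TGFB1 libraries.

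The genes whose pattern over the 4 libraries was most like the median of the 10 were sought among 4789 other protein-coding genes with at least 10 RPKM in a library, by the Euclidean distance of their centred log2 values. They were 9130401M01Rik, Rack1, Atp2c1, Usp39 and Mex3c, at distances of 0.022 to 0.038. Rack1, a protein of the small ribosomal subunit, measured 63.4, 87.4, 62.6 and 101 RPKM. Of the 10 genes themselves Hsp90b1 lay closest to their median, at 0.054, and Hspa5 farthest, at 0.41. The genes most like Hspa5 were Ptgfrn at 0.014, then Atp2a2, the calcium pump of the ER, at 0.039. Over 4 libraries many genes share a pattern, and these distances are a description.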

How the data were processed

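Total RNA of 4 cell cultures was sequenced by the authors, who trimmed the reads, aligned them to mm10 with HISAT2 2.1.0 and computed RPKM with HOMER. The deposited RPKM values are per transcript of the UCSC known genes, with 3 decimals. The file header names counting over exons, whereas the methods name genes. The table held 63759 transcripts, of which 57708 (90.5%) were given a symbol by at least 50% overlap on the same strand with a GENCODE vM21 gene. The transcript with the longest gene body stood for each gene.

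Reads were recovered from the RPKM steps. For transcripts of up to 600 bases, all values tested, 1964 to 2003 per library, fell within 0.1 of a whole number of reads at the depth given. A floor of 3 reads per kilobase is 0.0524 to 0.0534 RPKM. A level of 0 RPKM was set to 0.001 before taking ratios, and a call was a change of at least 1.5-fold, as in the methods of the study. With 1 library per condition no count model was run. Intervals are 95% exact conditional intervals for the ratio of 2 libraries, large-sample intervals for a difference of log2 changes, and Wilson intervals for shares, and they cover counting error only.

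The 10 genes and all lists were chosen with earlier results of these data known. Named are the 10 genes and, of each list, the largest change up and down in each genotype and those past 1.5-fold in both, from which examples are given. Motifs were searched in RefSeq promoters. Alternatives were a rescaling of the libraries, pseudocounts of 1 and 0.1 RPKM, other choices of transcript, a threshold of 2-fold and no minimum level. Python 3.11.15, numpy 2.4.6, pandas 2.3.3, scipy 1.17.1 and matplotlib 3.10.9 were used.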

Additional observations from a re-analysis of the deposited data

Results flagged for a closer look

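Among the genes of the 7 lists with at least 1 RPKM, 3 moved in opposite directions in the genotypes, with intervals for counting error that left out 0 in both. The share of all genes that meet this rule was not computed. Of all 11029 genes, 45.9% were higher with TGFB1 in Hmga2+/+, 50.8% in Hmga2-/- and 41.3% in both, so genes outside these lists also moved in opposite directions. Sec62, a component of the translocon, went from 39.8 to 37.6 RPKM with TGFB1 in Hmga2+/+, a change of -0.08 log2 (-0.13 to -0.04), and from 35.2 to 39.0 RPKM in Hmga2-/-, a change of 0.15 log2 (0.10 to 0.19), a difference of 0.23 log2. Sec23a, a subunit of the COPII coat, changed by -0.08 log2 (-0.13 to -0.03) and 0.18 log2 (0.13 to 0.24), a difference of 0.27 log2. Sec31a, of the outer COPII coat, changed by -0.05 log2 (-0.10 to -0.01) and 0.18 log2 (0.13 to 0.22), a difference of 0.23 log2. With the libraries rescaled, the changes in Hmga2+/+ were nearer to 0, at -0.05 log2 for Sec62, -0.04 log2 for Sec23a and -0.02 log2 for Sec31a. For Sec23a and Sec31a this shift was larger than the distance of the upper limit from 0. Their intervals in Hmga2+/+ would then no longer leave out 0. The differences were not tested, since there was 1 library per condition and the intervals cover counting error only.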

How the results depend on the processing

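All 100 values of the TGFB1 change of the 10 genes under other settings kept their sign. Many of them could not do otherwise. A pseudocount cannot change a sign, and the transcript with the longest counted length gave the main values again for all 10 genes. Only the rescaling could change a sign, and the transcript of highest mean RPKM where it was another transcript. Of 250 values in all, which include these settings, none moved by more than 1.5-fold and the largest move was 0.25 log2. Of them 3 changed sign, each a difference between the Ctrl libraries of the genotypes. With the libraries rescaled by their median ratio, Hspa5 went there from -0.03 to 0.000586 log2, Sdf2l1 from -0.01 to 0.02 log2, the median change in Hmga2+/+ was 0.48 log2 and the median difference of the changes 0.19 log2. Under rescaling and with pseudocounts of 1 or 0.1 RPKM, 0 of the 10 genes were 1.5-fold higher in Hmga2-/- than in Hmga2+/+ with TGFB1, instead of 1. With the transcript of highest mean RPKM per gene, the median change in Hmga2-/- was 0.73 log2 and Xbp1 went from 0.11 to -0.13 log2 between the Ctrl libraries. At 2-fold, 0 genes were called in Hmga2+/+, 2 in Hmga2-/- (Hspa5 and Xbp1) and 0 between the TGFB1 libraries, beside 4.94% and 5.69% of all genes higher with TGFB1 in Hmga2+/+ and Hmga2-/-. With no minimum level, 8.12% of genes were 1.5-fold higher and 8.31% lower between the Ctrl libraries, and 8.99% and 7.83% between the TGFB1 libraries. With a pseudocount of 1 RPKM, the genes past 1.5-fold down with TGFB1 were 11.0% in Hmga2+/+ and 10.0% in Hmga2-/-, and between genotypes 1.04% of genes were higher and 0.843% lower in Ctrl, and 1.61% and 0.716% in TGFB1. Under this pseudocount the lists had fewer genes past 1.5-fold up: 2 instead of 4 sensors and factors in each genotype, 3 instead of 4 (Hmga2+/+) and 5 instead of 7 (Hmga2-/-) folding genes, and in Hmga2-/- 9 instead of 10 PERK-ATF4 targets and 0 instead of 1 gene of ER-associated degradation. No paired analysis was possible because each condition had 1 library and no result comes from a test. Depth limits Sdf2l1 and Xbp1 most among the 10 genes. Variation between cultures could not be measured, nor could a line be told apart from its genotype.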

Other observations

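Of the 37 genes with an ERSE in the promoter, 14 reached 1 RPKM, the 4 described above among them. Of the other 10, 5 were higher with TGFB1 in Hmga2+/+, 0 were past 1.5-fold up, 1 was past it down, and the median was 0.02 log2. In Hmga2-/- 7 of the 10 were higher, 1 past 1.5-fold up and 1 down, with a median of 0.26 log2. Creld2, an ER protein of folding, was the one past 1.5-fold up, at 13.5, 14.5, 12.1 and 18.3 RPKM, with a change of 0.10 log2 in Hmga2+/+ and 0.60 log2 in Hmga2-/-. The lectin chaperone Canx changed by 0.43 and 0.53 log2 and Dnajc3, an inhibitor of PERK, by -0.04 and 0.32 log2. Spats2l was the one past 1.5-fold down, at -1.26 and -1.30 log2. These genes were chosen after their values were seen.

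Kdelr2, another receptor for chaperones that leave the ER, was named after its values were seen. It had 48.9 and 48.1 RPKM in Hmga2+/+ and 42.2 and 61.3 RPKM in Hmga2-/-, a change of -0.03 log2 (-0.08 to 0.03) and 0.54 log2 (0.48 to 0.59). Its difference of 0.56 log2 lay just inside 1.5-fold.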
